A study of Mus musculus with 6 samples.

Results

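The comparison set every fibroblast library that had received breast cell vesicles against the libraries that had received the saline they were suspended in. NIH3T3, a mouse embryonic fibroblast line, had been given phosphate-buffered saline (PBS) or extracellular vesicles (EVs) released by 1 of 2 human breast lines. MCF10A is an epithelial line that does not form tumours, and MDA-MB-231 derives from a breast carcinoma without hormone receptors or HER2. All cells carried the label of passage 5 and were grown with fetal bovine serum, the EVs were given at 1 fixed number per cell, and RNA was taken after 48 h. RNA-seq libraries numbered 2 for each of the 3 treatments, so the 4 EV libraries of both sources formed 1 group and the 2 PBS libraries the other. Genes were kept where at least 2 libraries had a value of at least 10 normalised reads, which left 12392 of the 20475 genes in the table.

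Several features limit the groups as a model. The labels do not say that replicates were separate cultures, so p-values measure the spread between these libraries, which may be technical. PBS controls for the liquid only. No EVs of another tissue, and none from the fibroblasts themselves, were analysed here, so a response to any vesicle and a response to breast vesicles cannot be told apart. The recipient cells are 1 established line.

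EVs are membrane-bound particles that carry proteins, lipids and RNA from the cell that releases them, and fibroblasts take them up. Fibroblasts in culture read growth factors and cytokines through kinase cascades that switch on immediate early genes, transcription factor genes such as Fos and Egr1 that respond within minutes and then induce cytokines, growth factors and matrix enzymes. A cell that divides needs a different set of transcripts, for nucleotide synthesis, DNA replication, mitosis and the building of ribosomes. Hypoxia-inducible factors turn on glycolysis and angiogenic genes when oxygen is low, and sterol-sensing factors turn on cholesterol synthesis when sterol is scarce.

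The 6 libraries held between 22451173 and 29315530 reads on genes, between 14553 and 14856 genes had a read, and 4.62% to 5.62% of the reads came from the top 10 genes. Values are normalised reads, each library having been brought to 1 shared size, and 3 reads were worth 2.54 to 3.26 of them. Of 12 fibroblast markers, all 12 were measured, with a summed level of 540684 to 540970.0 with PBS and 458986 to 479103 with EVs, and 7 of the 12 were called lower and 1 higher, with 1 and 2 called lower without PBS replicates 1 and 2. Vim, the fibroblast intermediate filament gene, stood at 147455 and 148599 normalised reads in the PBS libraries, 121820.0 and 120700.0 after MCF10A EVs, and 118717 and 114244 after MDA-MB-231 EVs, and its call as lower gave way to a change of 0 under quantile scaling, which gives equal values to a gene of equal rank. Markers of other cells were scarce: 2 of 12 epithelial, 3 of 12 macrophage and leukocyte, 1 of 10 endothelial and 1 of 8 adipocyte markers passed the filter, and their summed levels with EVs were 56.9 to 64.9, 998 to 1840.0, 158 to 345 and 92.5 to 113 normalised reads. With PBS these sums were 65.4 to 73.9, 3043 to 3151, 356 to 364 and 108 to 139. The macrophage sum was nearly all Cd14, an endotoxin co-receptor that is also counted among the innate defence genes. Epcam, Cdh1, Krt5, Krt14, Ptprc and Pecam1, which define epithelial, leukocyte and endothelial cells, did not pass the filter. The part of these differences in the results below was not tested.

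A gene was called at an adjusted p under 0.05 in limma's fit of 4 EV against 2 PBS libraries. The spread in that fit, also without a PBS library, holds the difference between the EV sources besides that between replicates. A gene on which the sources differ can thus miss or lose a call though its PBS libraries are close. Calls numbered 1862 higher with EVs, 15% of the genes tested, and 1472 lower, 11.9%. The rises were mostly small and the falls reached further: 14 called genes were at least 2-fold higher and 86 at least 2-fold lower, and at 1.5-fold the counts were 131 and 262. The 3334 calls in both directions were 26.9% of the genes tested. In each of them the EV libraries lay on 1 side of both PBS libraries, but so they did in many genes that were not called, since all 4 EV libraries lay above both PBS libraries in 27% of the genes tested and below both in 23.6%. A stricter set, called separated below, also needed a gap of at least 1.25-fold between the nearest EV and the nearest PBS library. It held 308 genes higher with EVs, 2.49% of those tested, and 344 lower, 2.78%. The number of calls leaned on the PBS libraries, since it fell to 928 without PBS replicate 1 and to 1003 without PBS replicate 2, fits in which the lone PBS library is assumed to vary like the EV libraries. A count given below as holding without either PBS library is that of both of these fits. Of the 652 separated genes, 645 could be tested in each of those fits, all 645 kept their direction, and 429 and 432 were still called. The kept direction follows from the gap that defines separated genes, which holds whichever library is left out. Changes are differences of mean log2(normalised reads + 1), EV minus PBS, with the standard error (SE) of the fit, and folds are those of the same scale.

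Gaps were ranked for genes that averaged at least 100 normalised reads, leaving out unnamed gene models, and some genes of lower level had wider ones. The 14 ranked first on the lower side included genes of secreted defence proteins, receptors and early-response factors. Lcn2, which encodes lipocalin-2, an iron-siderophore binding protein, stood at 1229 and 1159 normalised reads in the PBS libraries, 342 and 336 after MCF10A EVs, and 488 and 425 after MDA-MB-231 EVs. Both sources lowered it, and no EV library came within 2.37-fold of a PBS library (log2 change -1.60 ± 0.14 SE, adjusted p = 0.000412). Nos2, the inducible nitric oxide synthase gene, stood at 1320.2 and 1302 normalised reads in the PBS libraries, 550.5 and 500.3 after MCF10A EVs, and 487 and 503 after MDA-MB-231 EVs, a fall of 2.57-fold (adjusted p = 0.000104). Its EV libraries were nearly level across sources, with a difference of MDA-MB-231 minus MCF10A EVs of -0.09 (95% interval -0.22 to 0.04) on the log2 scale. Tnfrsf9, the gene of the co-stimulatory receptor 4-1BB, behaved alike, at 1139.5 and 1171 normalised reads in the PBS libraries, 494 and 543 after MCF10A EVs, and 535 and 496 after MDA-MB-231 EVs, with a source difference of -0.01 (95% interval -0.14 to 0.13).

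Il1rn, which encodes the interleukin-1 receptor antagonist, fell 2.64-fold, from 2153 and 2139 to between 665 and 941. Osbp2, an oxysterol-binding protein gene, fell 3.30-fold and Gngt2, a G protein gamma subunit gene, fell 3.22-fold, each with the MDA-MB-231 EV libraries lower than the MCF10A EV libraries. Gdpd2, a glycerophosphodiesterase gene, fell 2.64-fold. Tnn, which encodes tenascin-N, an extracellular matrix glycoprotein, ranked first, at 286 and 276 normalised reads in the PBS libraries, 99.8 and 94.7 after MCF10A EVs, and 54.8 and 49.1 after MDA-MB-231 EVs (log2 change -1.97 ± 0.28 SE, adjusted p = 0.00206). The MDA-MB-231 EV libraries were the lower ones there, and likewise for Gpr35, a G protein-coupled receptor gene, and for Plek. Plek, which encodes pleckstrin, a substrate of protein kinase C, stood at 255 and 266 normalised reads in the PBS libraries, 99.0 and 108 after MCF10A EVs, and 24.4 and 23.5 after MDA-MB-231 EVs. The sources stood far apart, and the pooled adjusted p of 0.0242 rose to 0.135 without PBS replicate 1 (log2 change -2.39) and 0.141 without PBS replicate 2 (-2.33).

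**Figure D1:**
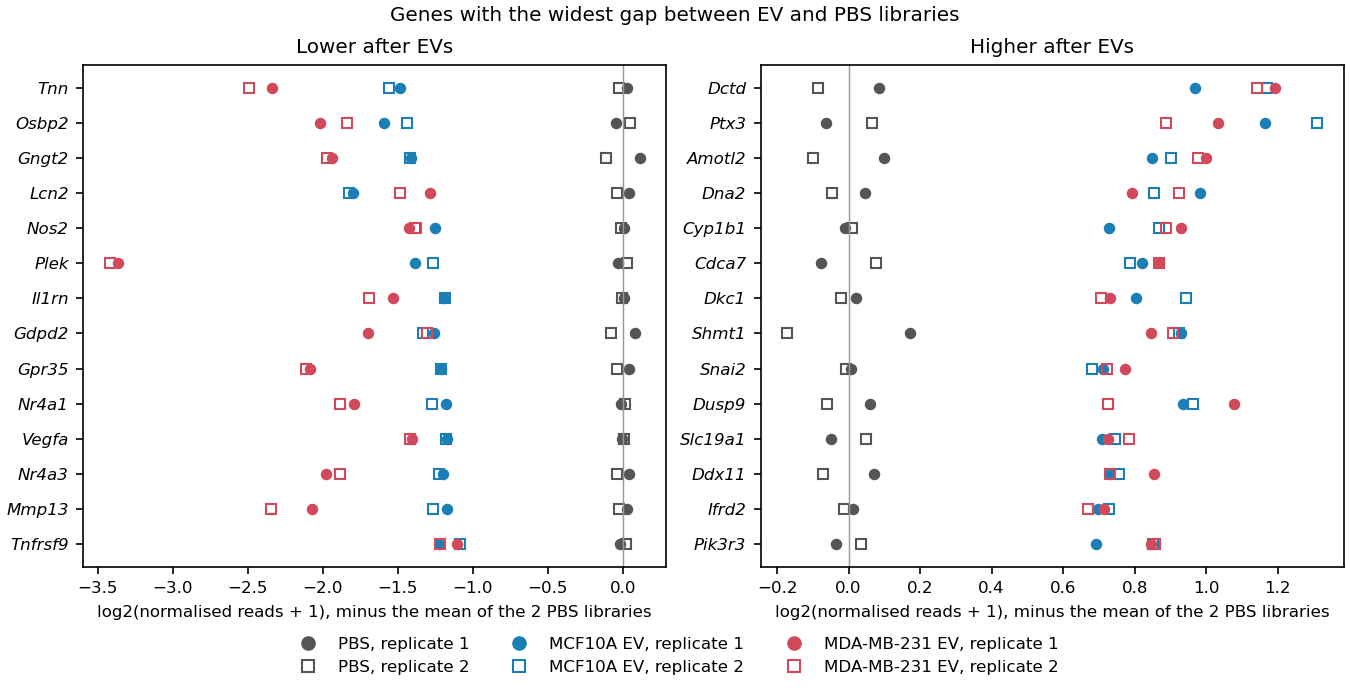
Each row is a gene and each point a library, on the log2(normalised reads + 1) scale minus the mean of the 2 PBS libraries, for the 14 genes lower and the 14 genes higher with EVs that had the widest gap between EV and PBS libraries out of named genes that averaged at least 100 normalised reads. Dark points are PBS, blue MCF10A EVs and red MDA-MB-231 EVs, filled for replicate 1 and open for replicate 2. No EV point reaches a PBS point, the blue and red points mix for Nos2 and Tnfrsf9, and they stand apart for Plek and Tnn.

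The 14 genes ranked first on the higher side, by the same rule, included enzymes of nucleotide and folate metabolism, helicases and secreted and regulatory proteins. Dctd, the deoxycytidylate deaminase that supplies the precursor of thymidylate, stood at 141 and 125 normalised reads in the PBS libraries, 261 and 299.6 after MCF10A EVs, and 305 and 294 after MDA-MB-231 EVs, a rise of 2.17-fold (log2 change 1.12 ± 0.10 SE, adjusted p = 0.000408). Shmt1, a serine hydroxymethyltransferase of the folate cycle, rose 1.87-fold, from 375 and 476 to between 761 and 806, and Slc19a1, the reduced folate carrier, rose 1.67-fold. The helicase genes Dna2 and Ddx11 rose, by log2 changes of 0.89 and 0.77. Dkc1, which encodes the pseudouridine synthase dyskerin, rose 1.74-fold. Among these 6, a source difference was called for Dkc1 alone, higher with MCF10A EVs (adjusted p = 0.0295).

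Ptx3, which encodes the pattern recognition protein pentraxin 3, stood at 569 and 622 normalised reads in the PBS libraries, 1335 and 1477 after MCF10A EVs, and 1219 and 1101 after MDA-MB-231 EVs, and it rose while most other innate defence genes fell. Amotl2, an angiomotin family gene and a known YAP target, rose 1.91-fold, and Cyp1b1, a cytochrome P450 gene, rose 1.81-fold. Snai2, which encodes the transcription factor SLUG, stood at 393 and 389 normalised reads in the PBS libraries, 640.2 and 627 after MCF10A EVs, and 668 and 646 after MDA-MB-231 EVs, a rise of 1.65-fold. The 4 EV libraries were close together (adjusted p = 0.000317). Cdca7 rose 1.78-fold, Dusp9, a MAP kinase phosphatase gene, rose 1.90-fold, Ifrd2 rose 1.63-fold, and Pik3r3, a regulatory subunit gene of phosphoinositide 3-kinase, rose 1.76-fold from a low level of 68.5 and 72.0 normalised reads.

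Transcripts of DNA replication rose together after EVs of both sources. All 31 genes of the replication list were called higher, with a median log2 change of 0.45 against 0.0070 over all genes tested, and 17 of the 31 were separated. Mcm2, a subunit of the replicative helicase, stood at 1878 and 1887 normalised reads in the PBS libraries, 2764 and 2806 after MCF10A EVs, and 2881 and 2792 after MDA-MB-231 EVs, a rise of 1.49-fold (adjusted p = 0.000177). Cdc6, which loads that helicase at origins, stood at 603 and 586 normalised reads in the PBS libraries, 914 and 933 after MCF10A EVs, and 868 and 993 after MDA-MB-231 EVs, a rise of 1.56-fold (adjusted p = 0.000497). The sources were close in both, with differences of 0.03 (95% interval -0.05 to 0.10) for Mcm2 and 0.01 (95% interval -0.12 to 0.14) for Cdc6. In 29 of the 31 the 95% interval of the source difference lay within 1.25-fold either way. A source difference was still called in 8 of the 31, all higher with MDA-MB-231 EVs. Over all genes tested such a difference was called in 23.4%. The list kept 23 calls without PBS replicate 1 and 27 without PBS replicate 2. In bulk RNA a larger share of cells in S phase and more of these transcripts per cell cannot be told apart.

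Of 26 genes of mitosis and chromosome segregation, 24 rose and 0 fell, with a median of 0.37, but 3 were separated. Without PBS replicate 1 the count of rises was 11. Aurka, a spindle kinase gene, stood at 1452 and 1433 normalised reads in the PBS libraries, 1833 and 1897 after MCF10A EVs, and 1852 and 1873 after MDA-MB-231 EVs, and Mad2l1, a spindle checkpoint gene, rose 1.38-fold. Mki67, the proliferation marker, stood at 15399.6 and 16237 normalised reads in the PBS libraries, 19361 and 20009 after MCF10A EVs, and 22457 and 22292 after MDA-MB-231 EVs, a rise of 1.33-fold, and its adjusted p of 0.00351 became 0.0566 without PBS replicate 1 (log2 change 0.37). Mitotic genes leaned towards MDA-MB-231 EVs: 20 of the 26 were called higher with them than with MCF10A EVs, and 0 lower. Of 19 genes of the G1 cyclins and the E2F and RB proteins, 11 rose and 1, Rb1, fell, and 4 and 6 rises were left without PBS replicates 1 and 2. Rb1, named after its value was seen, encodes the protein that restrains E2F factors, and its log2 change was -0.43. Other genes of these families rose, with log2 changes of 0.45 for Rbl1, a relative of Rb1, and 0.35 for E2f7.

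Enzymes that supply nucleotides also rose. Of 20 tested, 17 rose and 0 fell, with a median of 0.40, and 10 were separated. Atic, the last enzyme of purine synthesis, stood at 2194 and 2127 normalised reads in the PBS libraries, 3208 and 3372 after MCF10A EVs, and 3306 and 3279 after MDA-MB-231 EVs, a rise of 1.52-fold with a source difference of 0.00 (95% interval -0.08 to 0.08). Just 2 of the 20 were called different between the sources.

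Ribosome biogenesis genes rose in 22 of 26 cases and fell in 0, with a median of 0.42. Utp20, a component of the small-subunit processome, stood at 2018 and 2068 normalised reads in the PBS libraries, 3331 and 3307 after MCF10A EVs, and 3169 and 3180.0 after MDA-MB-231 EVs, a rise of 1.59-fold (adjusted p = 0.000175). Wdr12, which matures the large subunit, stood at 349.8 and 358 normalised reads in the PBS libraries, 535 and 537 after MCF10A EVs, and 533 and 516 after MDA-MB-231 EVs. Rises numbered 12 without PBS replicate 1 and 16 without PBS replicate 2. Here the lean was opposite to that of mitosis, since 12 of the 26 were called lower with MDA-MB-231 than with MCF10A EVs and 0 higher. Of 20 genes of the mitochondrial ribosome and protein import, 15 rose and 0 fell, a count that became 5 without either PBS library. Hspd1, the mitochondrial chaperonin, rose 1.38-fold from 8446 and 8547 to between 11197 and 12181. Mrpl12, a mitochondrial ribosomal protein gene, rose 1.33-fold.

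Hypoxia-inducible genes fell after EVs of both sources. Of 20 tested, 14 fell and 1, Adm, rose, with a median of -0.51, and 12 were separated. Vegfa, the angiogenic growth factor gene, stood at 14863 and 14998 normalised reads in the PBS libraries, 6625 and 6587 after MCF10A EVs, and 5638 and 5589.7 after MDA-MB-231 EVs. All 4 EV libraries lay far under both PBS libraries, a fall of 2.45-fold (log2 change -1.29 ± 0.08 SE, adjusted p = 0.000175). Ddit4, which encodes REDD1, an inhibitor of mTOR complex 1, stood at 1310.3 and 1369 normalised reads in the PBS libraries, 664 and 696 after MCF10A EVs, and 753 and 692 after MDA-MB-231 EVs, a fall of 1.91-fold. Ero1l, an endoplasmic reticulum oxidase gene, fell 1.92-fold, from 7611 and 7840.3 to between 3702 and 4327. Mxi1, whose product antagonises MYC, stood at 2585 and 2547 normalised reads in the PBS libraries, 1407 and 1395 after MCF10A EVs, and 1819 and 1785 after MDA-MB-231 EVs. Hif1a itself was called lower by a log2 change of -0.21. Adm, which encodes adrenomedullin, was the member that went against the rest, with a log2 change of 0.41, and it was named after its value was seen.

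Of 22 genes of glycolysis and glucose uptake, 17 fell and 0 rose, the median being -0.32, and 8 were separated. Without PBS replicate 1 there were 11 such falls. Pgk1, phosphoglycerate kinase, stood at 33393 and 33415 normalised reads in the PBS libraries, 24184 and 24324 after MCF10A EVs, and 24296 and 22840.4 after MDA-MB-231 EVs, a fall of 1.40-fold with a source difference of -0.04 (95% interval -0.10 to 0.02). Pdk1, which holds pyruvate back from the mitochondrion, stood at 4171 and 4305 normalised reads in the PBS libraries, 1983 and 2108 after MCF10A EVs, and 2776 and 2707 after MDA-MB-231 EVs. There, and in Pfkl, a phosphofructokinase gene that fell 1.49-fold, the fall was deeper with MCF10A EVs. All 10 glycolysis genes that were called different between the sources were the higher with MDA-MB-231 EVs.

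Promoter letters are shown for 4 genes, 1 each from the hypoxia, replication, immediate early and cytokine lists, with RefSeq windows of build GRCm38.p6 as the source. Each line is the 250 bases before the annotated start, 5′ to 3′ on the gene's strand, and capitals mark matches, on either strand, to any motif searched. Nr4a1 and Il6 were taken by rule as the members of their lists with the widest gap, and Ddit4 and Cdc6 after their matches had been seen.
Ddit4, chr10:59951771-59952020, minus strand: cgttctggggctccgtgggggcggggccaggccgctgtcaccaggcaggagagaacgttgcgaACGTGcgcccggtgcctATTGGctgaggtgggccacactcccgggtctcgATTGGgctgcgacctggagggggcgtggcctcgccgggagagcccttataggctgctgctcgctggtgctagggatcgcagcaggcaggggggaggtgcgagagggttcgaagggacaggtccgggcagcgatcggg
Cdc6, chr11:98907901-98908150, plus strand: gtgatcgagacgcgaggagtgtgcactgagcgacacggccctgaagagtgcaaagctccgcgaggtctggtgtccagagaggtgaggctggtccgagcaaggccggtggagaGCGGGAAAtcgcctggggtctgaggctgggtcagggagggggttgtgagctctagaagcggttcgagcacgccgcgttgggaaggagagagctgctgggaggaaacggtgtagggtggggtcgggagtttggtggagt
Nr4a1, chr15:101266596-101266845, plus strand: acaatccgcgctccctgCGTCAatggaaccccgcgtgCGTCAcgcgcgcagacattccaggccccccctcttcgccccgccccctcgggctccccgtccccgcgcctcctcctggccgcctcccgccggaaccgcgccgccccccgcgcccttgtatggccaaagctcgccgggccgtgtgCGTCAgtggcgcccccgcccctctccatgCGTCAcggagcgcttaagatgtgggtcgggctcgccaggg
Il6, chr5:30012864-30013113, plus strand: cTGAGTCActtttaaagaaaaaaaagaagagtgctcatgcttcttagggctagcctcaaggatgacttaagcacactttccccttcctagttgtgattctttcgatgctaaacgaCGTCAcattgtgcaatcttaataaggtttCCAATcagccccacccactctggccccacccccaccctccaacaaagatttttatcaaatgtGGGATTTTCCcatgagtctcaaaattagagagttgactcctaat
Ddit4 has the hypoxia response core ACGTG at -187 from the start and the CCAAT box, as ATTGG on this strand, at -170 and -137. Cdc6 has the E2F site TTTCCCGC, on the other strand, at -138. Nr4a1 has 4 copies of the short cAMP response element TGACG, all on the other strand, at -233, -213, -69 and -40, and an NF-kB match that crosses the start and is left out of the capitals. Il6 has an AP-1 site TGACTCA on the other strand at -249, TGACG on the other strand at -135, CCAAT at -106 and an NF-kB match at -44.

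Matches were counted over the whole window of 300 bases, which adds 50 bases after the start, for 27025 gene symbols with 32851 windows. ACGTG occurs in a window of 21.8% of all symbols, in 12 of the 14 hypoxia genes with a window and in 13 of the 22 glycolysis genes. It also occurs in 8 of 14 clock, 6 of 11 MYC and MAX network and 8 of 15 G1 cyclin, E2F and RB genes, shares near that of glycolysis. TTTCCCGC occurs in 1.24% of symbols and in 6 of 24 replication genes, and the E2F variant TTTGGCGC in 0.585% and in 5 of 24. Dna2, the replication gene with the widest gap, has no match to any motif searched, and Vegfa, the hypoxia gene with the widest gap, has ACGTG in 1 of its 2 windows, at -211. TGACG occurs in 23.0% of symbols in 9 of 13 immediate early genes, and also in 13 of 24 replication and 11 of 18 mitochondrial ribosome and import genes. CCAAT occurs in 41.1% of symbols, in 14 of 14 cholesterol genes and in 17 of 19 endoplasmic reticulum folding genes, and also in 17 of 21 mitosis and 12 of 14 clock genes. The hypoxia core lies within the E-box CACGTG and TGACG within the full element TGACGTCA, so those counts overlap. The AP-1 site TGACTCA occurs in 5.95% of symbols, in 4 of 15 cytokine and 0 of 11 AP-1 family genes, and also in 5 of 18 NRF2 targets. The loose form of the NF-kB site occurs in 6.55% of symbols, in 4 of 15 cytokine, 8 of 13 NF-kB and 2 of 13 immediate early genes. It also occurs in 4 of 12 lipid handling genes. The other motifs searched were a strict form of the NF-kB site and the serum response factor site. A match is a description of the letters, not a measured site.

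Of 21 cholesterol synthesis genes 16 fell and 0 rose, the median being -0.32, close to that of glycolysis. The falls were moderate, from Pmvk, phosphomevalonate kinase, at 723 and 717 normalised reads in the PBS libraries, 431 and 486 after MCF10A EVs, and 496 and 493 after MDA-MB-231 EVs, to a log2 change of -0.16 in Srebf2, the gene of the factor that drives the pathway. Insig1, which retains that factor in the endoplasmic reticulum, stood at 3830.2 and 3866 normalised reads in the PBS libraries, 2789 and 2797 after MCF10A EVs, and 2604 and 2799 after MDA-MB-231 EVs, and it fell 1.40-fold (adjusted p = 0.000409). Msmo1, a sterol methyl oxidase gene, fell 1.35-fold. In 21 of 21 the 95% interval of the source difference lay within 1.25-fold, and the calls without PBS replicates 1 and 2 numbered 11 and 13.

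**Figure D2:**
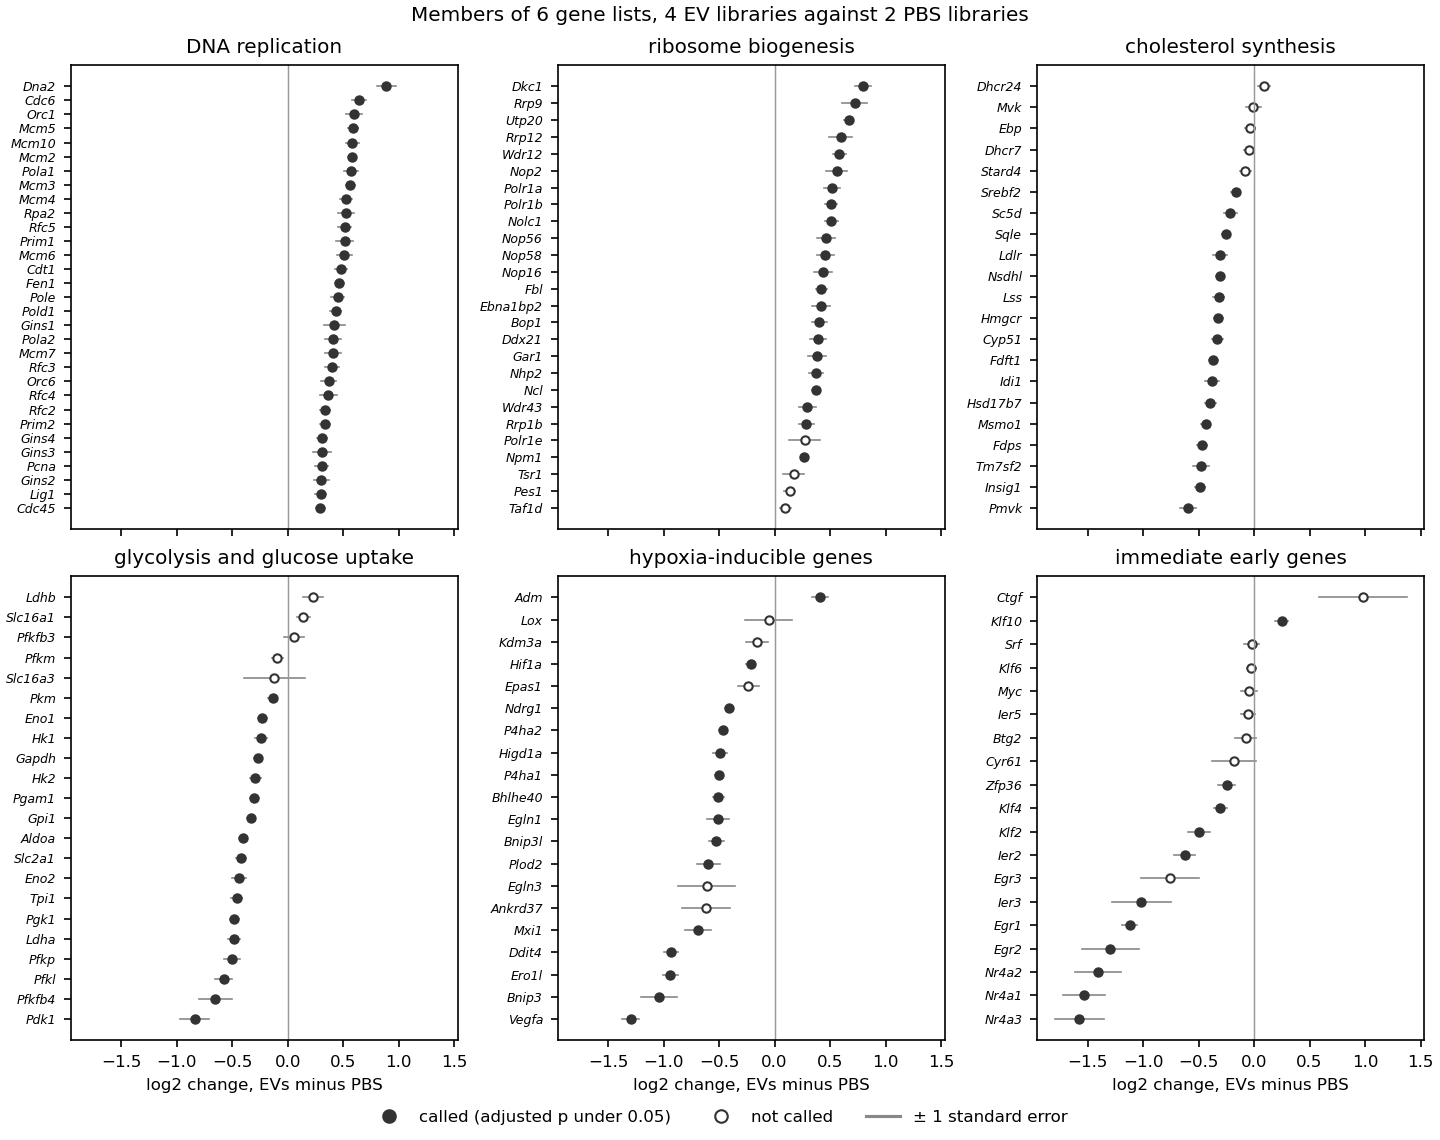
Each panel is a gene list and each row a tested member, with the log2 change of the 4 EV libraries against the 2 PBS libraries and ± 1 SE. Filled points were called at an adjusted p under 0.05. All 31 replication genes lie to the right of 0, 16 of 21 cholesterol genes are filled on the left, and the immediate early genes spread from -1.57 for Nr4a3 to 0.98 for Ctgf, which was not called.

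Immediate early genes held some of the deepest falls. Of 19, 10 fell and 1, Klf10, rose, with a median of -0.31, and 7 were separated. The falls numbered 6 without PBS replicate 1 and 5 without PBS replicate 2. Nr4a1, an orphan nuclear receptor gene, stood at 14746 and 14965 normalised reads in the PBS libraries, 6571 and 6149 after MCF10A EVs, and 4283 and 4020.0 after MDA-MB-231 EVs, a fall of 2.89-fold (log2 change -1.53 ± 0.19 SE, adjusted p = 0.00113). PBS lay over MCF10A EVs and these over MDA-MB-231 EVs, with no overlap between any pair of treatments, and the source difference was -0.62 (95% interval -0.69 to -0.54). Its relatives Nr4a2 and Nr4a3 fell 2.65-fold and 2.98-fold in the same order. Egr1, Egr2 and Ier3 had log2 changes of -1.12, -1.29 and -1.02, all called. Of the 19 genes, 15 were called lower with MDA-MB-231 than with MCF10A EVs and 0 higher, against 23.4% of all genes called different either way.

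The AP-1 family, whose FOS and JUN proteins pair to bind DNA, fell in 9 of 12 cases and rose in 0, with a median of -0.37. Fos stood at 209.7 and 215 normalised reads in the PBS libraries, 112 and 113 after MCF10A EVs, and 74.2 and 77.7 after MDA-MB-231 EVs, a fall of 2.29-fold (adjusted p = 0.00326). Fosb and Atf3 fell 2.23-fold and 2.05-fold, but neither was called without either PBS library, where Fosb had adjusted p of 0.0800 and 0.0891 and Atf3 0.0899 and 0.0731. The AP-1 count was 5 and 4 without PBS replicates 1 and 2.

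Feedback inhibitors of MAP kinase signalling fell in 9 of 19 cases, and 1, Spry1, rose. Errfi1, an inhibitor of the EGF receptor, stood at 9521 and 9208 normalised reads in the PBS libraries, 5498 and 5447 after MCF10A EVs, and 4873 and 4495 after MDA-MB-231 EVs, a fall of 1.85-fold. Dusp1, a phosphatase of MAP kinases, fell 1.64-fold, from 2037 and 2144 to between 1104 and 1457. Spry2, a sprouty gene, fell 1.77-fold, and its adjusted p of 0.00795 was 0.0761 without PBS replicate 1 and 0.0686 without PBS replicate 2. The list's falls then numbered 2 and 3. Dusp9, named above, is outside the list and rose.

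Of 23 cytokine and chemokine genes 8 fell and 0 rose, the median being -0.33. Il6, which encodes interleukin-6, stood at 1901 and 2072 normalised reads in the PBS libraries, 985 and 905 after MCF10A EVs, and 482 and 441 after MDA-MB-231 EVs (log2 change -1.59 ± 0.31 SE, adjusted p = 0.00739). Lif, of the same cytokine family, stood at 30195 and 31069.8 normalised reads in the PBS libraries, 15862 and 15613 after MCF10A EVs, and 8603 and 7781 after MDA-MB-231 EVs, a fall of 2.70-fold. In both, each source lay apart from PBS and from the other source, and MDA-MB-231 EVs gave the lower values. Il33, an alarmin gene, followed, with a fall of 1.78-fold. None of the 3 was called without PBS replicate 1 or without PBS replicate 2. Adjusted p was then 0.0628 and 0.0740 for Il6, 0.0673 and 0.0714 for Lif and 0.132 in both fits for Il33. The list kept 1 and 2 falls in those fits and 5 without MDA-MB-231 EV replicate 1. Ccl2, a monocyte chemokine gene, was not called: it stood at 38737 and 38884 normalised reads in the PBS libraries, 40263 and 39091 after MCF10A EVs, and 28719 and 28276 after MDA-MB-231 EVs, so the MCF10A EV libraries lay just above PBS and the MDA-MB-231 EV libraries below.

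Innate defence and acute phase genes numbered 15, of which 9 fell and 1, Ptx3, rose, the median being -0.49. Saa3, a serum amyloid A gene, stood at 21614 and 23099 normalised reads in the PBS libraries, 8575 and 8738 after MCF10A EVs, and 10929 and 10966 after MDA-MB-231 EVs, a fall of 2.30-fold (adjusted p = 0.000412). With Lcn2 it differs from the cytokines in the order of the sources, since MCF10A EVs gave the lower values of both. Genes of NF-kB subunits and their feedback fell in 8 of 17 cases and 1, Bcl2l1, rose. Nfkbiz, a nuclear regulator of NF-kB, fell 1.60-fold, and Birc3, an inhibitor of apoptosis gene, stood at 980.2 and 956 normalised reads in the PBS libraries, 708 and 730.3 after MCF10A EVs, and 753 and 734 after MDA-MB-231 EVs. The NF-kB falls numbered 2 and 3 without PBS replicates 1 and 2, and 5 without MDA-MB-231 EV replicate 1.

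In the prostaglandin pathway 3 of 14 genes were called, no larger a share than the 26.9% of all genes tested. Ptgs2, the inducible cyclooxygenase gene, stood at 128739 and 128902 normalised reads in the PBS libraries, 83618 and 79259.6 after MCF10A EVs, and 33242 and 29703 after MDA-MB-231 EVs. The pooled change of -1.35 had an adjusted p of 0.041, which became 0.188 without PBS replicate 1 and 0.187 without PBS replicate 2 (log2 change -1.35 in each). The fall against PBS was 1.58-fold with MCF10A EVs and 4.10-fold with MDA-MB-231 EVs, so the sources differed by -1.37 (95% interval -1.45 to -1.30). The receptor genes moved in opposite directions: Ptgfr, the receptor for prostaglandin F2 alpha, fell 1.24-fold, and Ptger4, a receptor for prostaglandin E2, stood at 169 and 180.5 normalised reads in the PBS libraries, 262 and 254 after MCF10A EVs, and 239.7 and 248 after MDA-MB-231 EVs, a rise of 1.44-fold. In neither was a source difference called, with differences of -0.04 (95% interval -0.10 to 0.03) for Ptgfr and -0.08 (95% interval -0.29 to 0.13) for Ptger4.

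Matrix genes fell more often than they rose. A source difference was called in 14 of 20 matricellular genes, 13 of 21 protease genes and 15 of 19 collagen genes, against 23.4% of all genes tested. Of 20 matricellular and adhesive matrix genes, 9 fell and 1, Fbln5, rose, with 5 falls without either PBS library. Thbs1, which encodes thrombospondin-1, stood at 138144 and 138937 normalised reads in the PBS libraries, 89308 and 86964 after MCF10A EVs, and 69519 and 67832 after MDA-MB-231 EVs, a fall of 1.78-fold (adjusted p = 0.00168). Mfap5, a microfibril gene, fell 1.83-fold, with a source difference of 0.10 (95% interval -0.14 to 0.35). Of 21 matrix proteases and inhibitors 7 fell and 0 rose, and 4 falls were left without either PBS library. Mmp13, a collagenase gene, stood at 1714 and 1653 normalised reads in the PBS libraries, 745 and 699 after MCF10A EVs, and 399 and 330.2 after MDA-MB-231 EVs, and its adjusted p of 0.00475 became 0.0566 and 0.0504 without PBS replicates 1 and 2 (log2 change -1.69 and -1.74). Adamts1 fell 1.60-fold and Mmp2, a gelatinase gene, fell 1.31-fold.

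Collagen genes fell in 7 of 19 cases, and Col3a1 rose. None of the 7 falls was called without either PBS library, and 4 were without MDA-MB-231 EV replicate 1. Col3a1, of fibrillar type III collagen, stood at 3962 and 3973 normalised reads in the PBS libraries, 6882 and 6889 after MCF10A EVs, and 5464 and 5434 after MDA-MB-231 EVs, a rise of 1.54-fold (adjusted p = 0.00386) that was larger with MCF10A EVs. Col5a3 fell 1.95-fold, with adjusted p of 0.0686 and 0.0667 without PBS replicates 1 and 2. Col1a1, of type I collagen, stood at 57110.4 and 56174 normalised reads in the PBS libraries, 51133 and 50718 after MCF10A EVs, and 49252 and 47161 after MDA-MB-231 EVs, a fall of 1.14-fold, with adjusted p of 0.143 and 0.107 without PBS replicates 1 and 2. Among 20 myofibroblast and contractile genes 5 rose and 3 fell, beside 15% higher and 11.9% lower over all genes tested. The falls are close to that share. Most calls of this list were lost without either PBS library. Acta2, smooth muscle actin, stood at 1606 and 1395 normalised reads in the PBS libraries, 2467 and 2304 after MCF10A EVs, and 1936 and 1903 after MDA-MB-231 EVs, a rise of 1.43-fold that was not called without PBS replicate 2 (log2 change 0.41, adjusted p = 0.118).

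In the pooled comparison transcripts of MYC itself did not rise with the growth genes. The sources moved Myc apart, with both MCF10A EV libraries above both PBS libraries and both MDA-MB-231 EV libraries below. The source difference of -0.19 was called. Myc stood at 1556 and 1575 normalised reads in the PBS libraries, 1589.8 and 1658 after MCF10A EVs, and 1444 and 1396 after MDA-MB-231 EVs, was not called (adjusted p = 0.683, 95% interval of the log2 change -0.21 to 0.12) and stood at 0.000414 when reads were scaled by library totals, a scaling that raised the median of all genes as well. Of 13 genes of the MYC and MAX network 3 rose, Mycn, Mga and Tfap4, and 3 fell, Mnt, Mxi1 and Mxd4. The products of the 3 that fell repress MYC targets, and so does that of Mga, which rose. Without PBS replicate 1 there were 0 rises and 1 fall, and without PBS replicate 2 there was 1 of each. Tfap4, a basic helix-loop-helix factor gene, stood at 163 and 203 normalised reads in the PBS libraries, 281 and 378 after MCF10A EVs, and 403 and 399.7 after MDA-MB-231 EVs, a rise of 1.98-fold whose adjusted p of 0.00317 became 0.0503 without PBS replicate 1 (log2 change 0.83). Mxd4 fell 1.28-fold, with adjusted p of 0.0665 and 0.0560 without PBS replicates 1 and 2 (log2 change -0.34 and -0.36).

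Of 17 YAP and TEAD target genes 5 rose and 2 fell, the falls being close to the 11.9% of all genes called lower. The median log2 change was -0.01, which library totals moved to 0.03 as they moved the median of all genes from 0.0070 to 0.052. Ajuba, a LIM protein gene of that pathway, rose 1.63-fold and moved with Amotl2. Without either PBS library there were 3 rises. Id1, an inhibitor of basic helix-loop-helix factors and a target of bone morphogenetic proteins, stood at 466 and 486 normalised reads in the PBS libraries, 765 and 769.7 after MCF10A EVs, and 849 and 805 after MDA-MB-231 EVs, a rise of 1.67-fold. It went against the other called genes of the TGF-beta and BMP list, of which 6 of 19 fell and 2, Id1 and Id3, rose, with 2 and 1 falls without PBS replicates 1 and 2.

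Endoplasmic reticulum folding genes mark where the response was not common. Of 22, 6 fell and 0 rose in the pooled comparison, and 0 were called without either PBS library, against 15 without MCF10A EV replicate 1 and 3 without MDA-MB-231 EV replicate 1. The median log2 change was -0.12 with MCF10A EVs and -0.53 with MDA-MB-231 EVs, and 21 of the 22 were called lower with MDA-MB-231 than with MCF10A EVs. Eif2ak3, the gene of the stress kinase PERK, stood at 1122 and 1142 normalised reads in the PBS libraries, 916 and 921 after MCF10A EVs, and 699 and 829 after MDA-MB-231 EVs, and its adjusted p of 0.0166 became 0.107 and 0.119 without PBS replicates 1 and 2. The ATF4 and CHOP stress effectors had a median of 0.10 with MCF10A EVs and -0.27 with MDA-MB-231 EVs, and 16 of 21 were called lower with the second. Medians with either source share the PBS libraries and are given side by side for that reason.

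**Figure D3:**
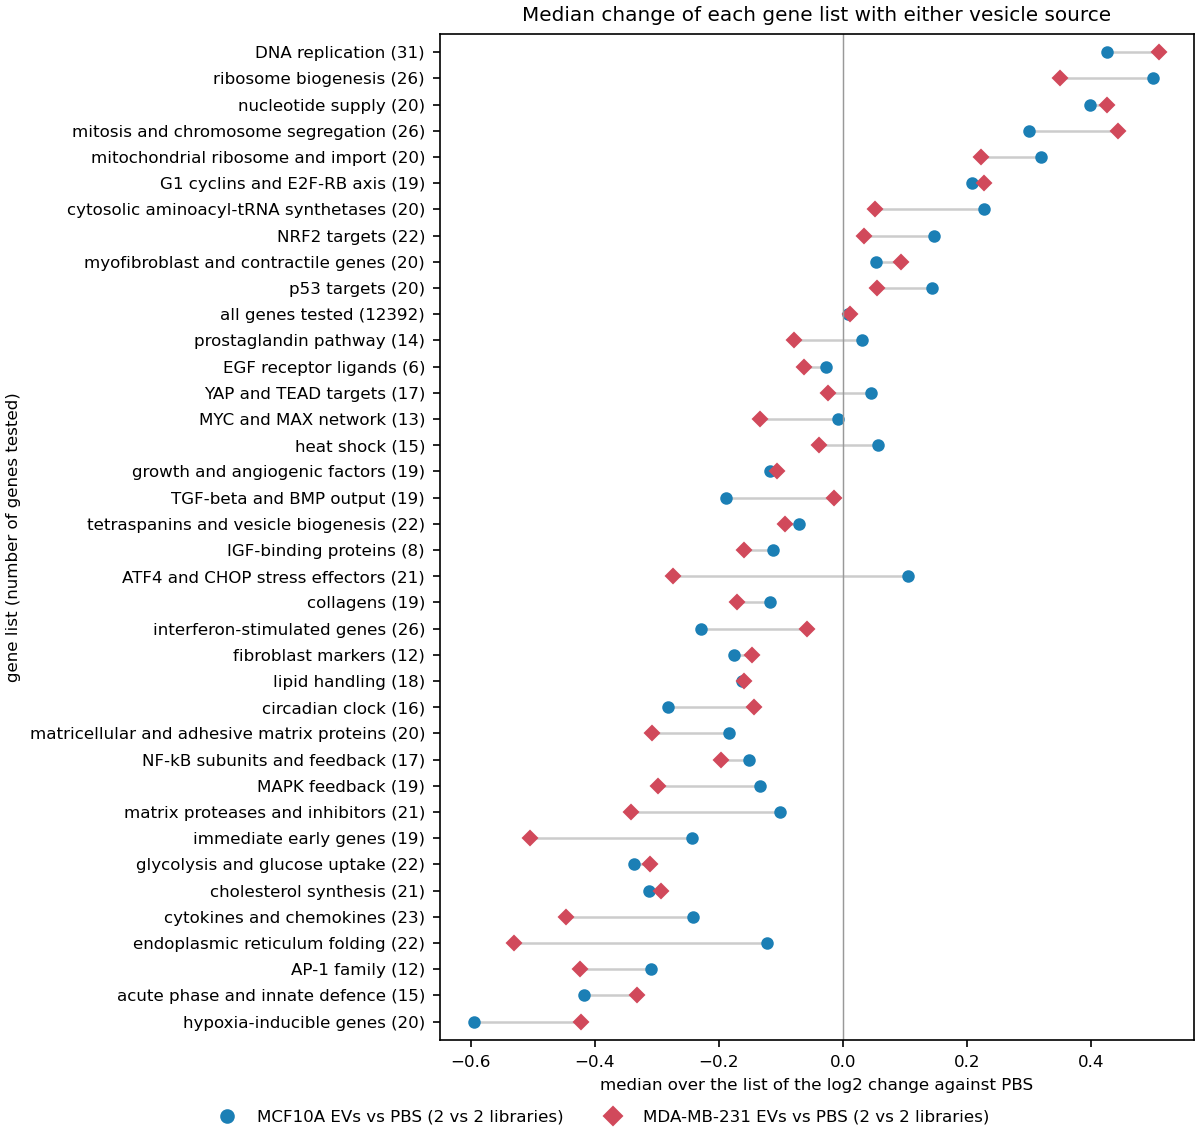
For each gene list with at least 5 genes tested, the circle is the median log2 change against PBS with MCF10A EVs and the diamond that with MDA-MB-231 EVs, both against the same 2 PBS libraries. Replication, nucleotide supply, cholesterol synthesis and glycolysis have their pair of symbols close together and away from the row of all 12392 genes, while endoplasmic reticulum folding and the ATF4 and CHOP effectors have theirs far apart.

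The difference between the sources was tested over the same 12392 genes with a mean per treatment. It was called for 2897 genes, 23.4%, of which 1219 were higher and 1678 lower with MDA-MB-231 EVs. Of the 652 separated genes 217, 33.3%, were among them. The rises and falls differed in this respect as counts: 52 of the 308 separated rises, 16.9%, and 165 of the 344 separated falls, 48%, differed between the sources. In 137 of those 165 falls the MDA-MB-231 EV libraries were the lower, and in 28 the MCF10A EV libraries. The median size of the source difference was 0.08 on the log2 scale over the separated rises, whose median change was 0.54, and 0.19 over the separated falls, whose median change was 0.70. For 224 separated rises, 72.7%, and 129 separated falls, 37.5%, the 95% interval of the source difference lay within 1.25-fold either way. The pooled fit and the gap admit a gene of small change only where its EV libraries lie close. A gene of larger change can pass also where its sources differ. The separated rises and falls differ in the size of their change, so these shares depend in part on how the genes were taken. How large that part is was not tested.

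**Figure D4:**
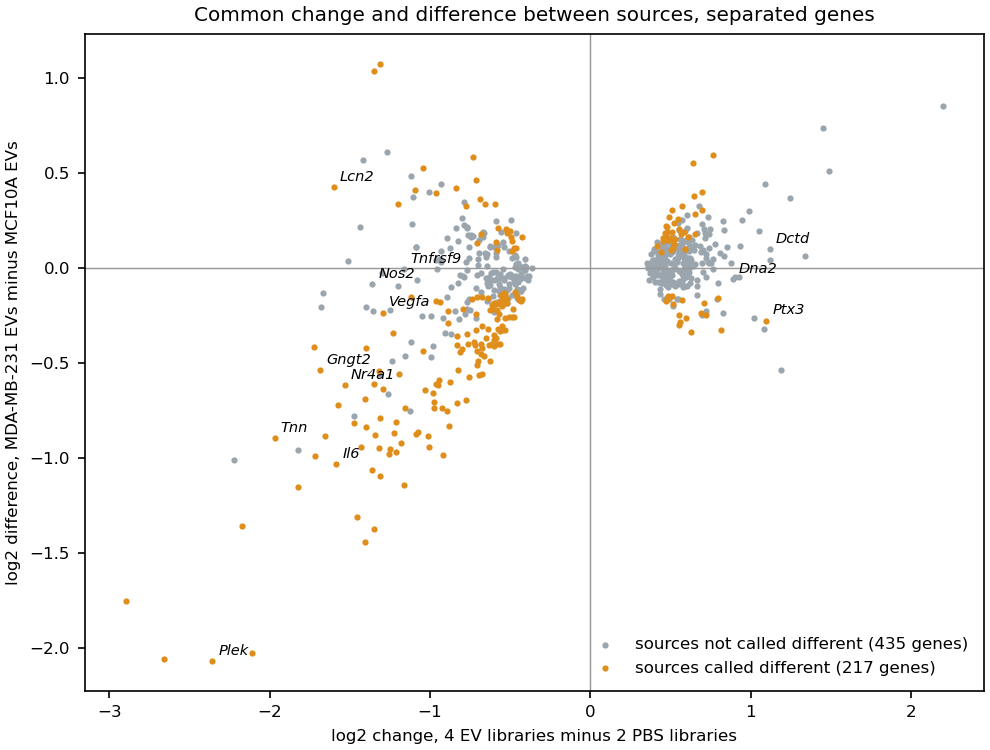
Each point is 1 of the 652 separated genes, with the log2 change of the 4 EV libraries against the 2 PBS libraries on the horizontal axis and the log2 difference of MDA-MB-231 minus MCF10A EVs on the vertical axis. Orange points, 217 genes, were called different between the sources. Rises cluster near 0 on the vertical axis, and the deeper falls extend down to Plek at -2.07.

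Some genes had no common response, with the sources on opposite sides of PBS. Of the 12392 genes tested, 2897 were called different between the sources. In 541 of these, both libraries of 1 source lay above both PBS libraries and both of the other below. How many genes would take this order by chance was not tested. The 6 with the largest source difference and a mean of at least 100 normalised reads were Chac1, Csf2, Flrt3, Cth, L1cam and Gap43. Chac1, which encodes a glutathione-degrading enzyme induced by ATF4, stood at 1143 and 1039 normalised reads in the PBS libraries, 1488 and 1385 after MCF10A EVs, and 592 and 558 after MDA-MB-231 EVs, and its pooled change was -0.26 ± 0.39 SE (adjusted p = 0.663). Csf2, the gene of the cytokine GM-CSF, stood at 249 and 313 normalised reads in the PBS libraries, 335 and 343 after MCF10A EVs, and 144 and 156 after MDA-MB-231 EVs. Cth, cystathionine gamma-lyase, and Flrt3, a leucine-rich repeat membrane protein gene, had the same order, and Gap43, a neuronal growth-associated gene, stood just above both PBS libraries with MCF10A EVs and 1.72-fold lower with MDA-MB-231 EVs. L1cam, a neural adhesion molecule gene, had the reverse order, at 248 and 248 normalised reads in the PBS libraries, 143 and 176 after MCF10A EVs, and 312 and 265 after MDA-MB-231 EVs.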

How the data were processed

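RNA-seq was done on 6 NIH3T3 libraries, RNA being taken with TRIzol and made into stranded mRNA libraries, per the labels' protocols. The authors deposited 1 table of gene values that are signal, read counts adjusted to a common library size; TopHat2, edgeR and the human build hg19 are named in the submitters' processing notes. For the mouse build, annotation and counter, nothing is given in these sources, so genes are named without coordinates, and reads of overlapping or near-identical genes may be shared. The values could be traced to whole reads: inverting edgeR's library size adjustment gave whole reads for 122850 of 122850 values (100%, relative tolerance 1e-06). Library totals are those of the recovered reads, and 4267 of 20475 genes had 0 reads throughout.

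As the values are not counts, the tests were run with limma 3.58.1 in R 4.3.3, with a trend, on log2(value + 1) over the 12392 genes with at least 10 in at least 2 libraries, with Benjamini-Hochberg adjustment. The pooled fit had 4 residual degrees of freedom, and the fit with a mean per treatment, used for the difference between sources, had 3. The alternatives were edgeR 4.0.16 and DESeq2 1.42.0 on the recovered reads, other pseudocounts, filters and scalings, limma without trend, the replicate number as a block, each source alone and leaving out each library. On simulated EV against PBS counts of 12358 genes, limma called 38 of 50 genes changed 1.25-fold and 48 of 50 at 1.5-fold. It called 49 of 49 at 2-fold and 50 of 50 at 4-fold, with 6 false calls among 12159 unchanged genes. The simulated EV libraries had the same mean for both sources, and all genes shared a dispersion. These counts therefore do not measure how the pooled fit does where the sources differ.

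Named genes were the 14 higher and 14 lower with the widest gap and a mean of at least 100, leaving out unnamed gene models and small RNA genes, up to 3 called members of each list by gap, 8 genes always given (Myc, Acta2, Col1a1, Il6, Ccl2, Vegfa, Mki67 and Isg15), and the 6 that the sources moved furthest apart, 133 in all. Genes named beyond these, for a small count or as an example, were picked with their values in view. The comparison and the 41 gene lists were chosen with earlier results of these data known. Promoter windows were matched by symbol for 106 of the 133 named genes, 3 of them through synonyms. The counts over the interferon-stimulated list are not reported here.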

Additional observations from a re-analysis of the deposited data

Results flagged for a closer look

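In 53 of the 96 genes described with values, MDA-MB-231 and MCF10A EVs differed in limma's test of the difference between sources, given here as the log2 value with MDA-MB-231 minus MCF10A EVs. Of these genes 45 were also called against PBS, and the change was larger with MDA-MB-231 EVs in 34 and with MCF10A EVs in 11. The deepest differences were -2.07 for Plek, -1.37 for Ptgs2, -1.32 for Chac1, -1.17 for Csf2, -1.16 for Flrt3, -1.03 for Il6, -1.03 for Cth, -0.99 for Mmp13, -0.94 for Lif, -0.89 for Tnn, -0.89 for Gpr35, -0.85 for Gap43, -0.74 for Fosb, -0.72 for Nr4a3 and -0.71 for Il33. They cover early-response, cytokine and matrix genes beside genes that the sources moved apart.

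Intermediate differences were -0.69 for Nr4a2, -0.64 for Atf3, -0.62 for Nr4a1, -0.61 for Col5a3, -0.61 for Lpl, -0.56 for Fos, -0.54 for Gngt2, -0.54 for Spry2, -0.48 for Ccl2, -0.42 for Il1rn, -0.41 for Osbp2 and -0.36 for Thbs1. Smaller ones were -0.34 for Col3a1, -0.33 for Dusp1, -0.31 for Acta2, -0.30 for Nfkbiz, -0.28 for Ptx3, -0.27 for Eif2ak3, -0.23 for Vegfa, -0.23 for Errfi1, -0.22 for Scd1, -0.21 for Nfil3, -0.19 for Myc, -0.18 for Ero1l, -0.16 for Dkc1, -0.15 for Nqo1, -0.15 for Arntl, -0.15 for Adamts1, -0.15 for Shmt2 and -0.079 for Col1a1. These hold genes whose common change was larger than their source difference, such as Vegfa and Ero1l, and also Col1a1. With MDA-MB-231 EVs the higher source, the differences were 0.85 for L1cam, 0.43 for Lcn2, 0.42 for Pdk1, 0.36 for Mxi1, 0.34 for Saa3, 0.21 for Pfkl, 0.18 for Mki67 and 0.17 for Mad2l1.

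In 8 genes the nearest gap of 1 EV library took up most of the range of the 4 EV libraries, by Dixon's criterion at 95%, which chance meets in about 1 in 20 groups. The library apart had 6437 normalised reads of Ccng1, 2604 of Insig1, 1743 of Mrpl12, 22840.4 of Pgk1, 4339 of Phgdh, 114 of Pik3r3, 431 of Pmvk and 516 of Wdr12.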

How the results depend on the processing

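All alternatives gave the same direction for every separated gene they tested. The gap that defines these genes fixes that direction when libraries or a source are left out, so it is no check there. Against 3334 calls (1862 higher, 1472 lower), a mean per treatment gave 5845 (3070 and 2775), the MCF10A EV libraries alone 5045 (2345 lower) and the MDA-MB-231 EV libraries alone 5532 (2858 and 2674). Against 652 separated genes, MCF10A EVs alone gave 1087 (499 and 588), MDA-MB-231 EVs alone 1601 (717 and 884), any gap 3334 and a gap of 1.5-fold 136. Source differences numbered 1565 with DESeq2 and 902 without a trend, against 2897. Leaving out each library in turn gave 928 to 3373 calls (575 to 1801 higher, 353 to 1572 lower), 571 to 828 separated genes (322 to 407 higher, 223 to 421 lower) and 1763 to 2832 source differences; the lowest counts of calls came without PBS replicate 1, that of separated falls without PBS replicate 2 and that of source differences without MDA-MB-231 EV replicate 2. DESeq2 called 2801 genes, with no adjusted p for 961, and edgeR 3345. Library totals moved the median of all genes from 0.0070 to 0.052 and the share of calls that were higher from 55.8% to 68.5%. Of the tests of named genes under the alternatives, 2535 kept direction and call, 100 lost the call, 14 gained it and 10 turned: Vim to 0 under quantile scaling, Myc to 0.000414 under library totals and 0.052 with MCF10A EVs alone, where Ccl2 (0.032), Chac1 (0.40), Csf2 (0.28), Cth (0.20), Flrt3 (0.14) and Gap43 (0.062) also turned, and L1cam to 0.21 with MDA-MB-231 EVs alone. The replicate block gave 2541 calls. Same-numbered libraries did not deviate together (correlations of -0.006, -0.004 and 0.019 over 10309 genes). That does not show whether same-numbered libraries were prepared together. The causes were not tested. With 2 PBS libraries, a change near the 1.25-fold size may be missed, and a larger one where the sources differ.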

Other observations

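Interferon-stimulated genes moved in both directions. Ifit2 rose, with a log2 change of 0.49 and adjusted p = 0.00615 in limma's fit, and it was not called without either PBS library. Isg15, a ubiquitin-like antiviral protein gene, stood at 44.6 and 48.6 normalised reads in the PBS libraries, 26.7 and 20.1 after MCF10A EVs, and 25.4 and 26.6 after MDA-MB-231 EVs, a fall of 1.86-fold with adjusted p = 0.0128 in limma's fit, 0.0839 without PBS replicate 1 and 0.115 without PBS replicate 2.

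Of 16 circadian clock genes 7 fell and 1, Nr1d1, rose, with 3 falls without either PBS library. Arntl, which encodes the clock activator BMAL1, stood at 1513 and 1555 normalised reads in the PBS libraries, 1003 and 975 after MCF10A EVs, and 898 and 882 after MDA-MB-231 EVs, a fall of 1.63-fold. Nfil3, a clock-linked repressor gene, fell 1.74-fold. Of 18 lipid handling genes 9 fell and 2, Acaca and Fabp5, rose, with 3 falls without either PBS library. Lpl, lipoprotein lipase, stood at 20402 and 20072 normalised reads in the PBS libraries, 9785 and 9796 after MCF10A EVs, and 6726 and 6127 after MDA-MB-231 EVs, a fall of 2.55-fold, and Scd1, a fatty acid desaturase gene, fell 1.53-fold.

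Of 20 p53 genes 6 rose and 1, Trp53inp1, fell, with 3 and 2 rises without PBS replicates 1 and 2. Trp53 itself rose 1.31-fold, and Ccng1, a cyclin G gene, rose 1.19-fold. Of 22 NRF2 targets 4 rose and 1, Tkt, fell, with 1 rise without either PBS library and 8 rises under library totals. Those 4 rises are close to the 15% of all genes called higher. Nqo1, a quinone reductase gene, rose 1.40-fold. The serine synthesis genes Phgdh and Shmt2 rose 1.32-fold and 1.34-fold. Of 20 cytosolic aminoacyl-tRNA synthetases 5 rose and 0 fell, 11 rose under library totals, 9 without MDA-MB-231 EV replicate 2 and 3 without either PBS library, and Vars rose 1.24-fold.

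Of 22 genes of tetraspanins and vesicle biogenesis in the recipient cells 6 fell (Cd9, Cd81, Cd82, Hgs, Chmp4b and Cav1) and 0 rose, with 2 falls without either PBS library. Growth and angiogenic factor genes fell in 6 of 19 cases and rose in 3, with 2 falls and 0 rises without either PBS library. Heat shock genes rose in 3 of 15 cases and fell in 1, Bag3, with 1 rise without either PBS library. The rises in both lists are close to the 15% of all genes called higher. Among 8 genes of IGF-binding proteins and substrates Irs1 rose and Igfbp5 and Irs2 fell, none of them called without either PBS library. Of 6 EGF receptor ligand genes Nrg1 alone was called, higher.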
